A study of Mus musculus with 4 samples.

Results

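The genes described here are 10 surface proteins tied to the tetraspanin family and to cell fusion. They were measured in mouse osteoclast cultures labelled as deficient or wild-type for the transcription factor NFATc1. They were Ocstamp, Cd9, Cd81, Cd82, Cd53, Cd37, Tspan5, Tspan13, Cd44 and Cd47, chosen by name with earlier results of these data known. Every probe set (a group of array probes for 1 transcript) that the platform annotation gives to 1 of them alone was taken. All 10 were represented, among 12393 genes named by 1 symbol, by 18 of the 22690 probe sets on the array. Dcstamp, the best known partner of Ocstamp, was not analysed here.

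The NFATc1-deficient cultures came from C57BL/6 mice of genotype NFATc1 fl/fl MxCre+, in which polyIC induces the Cre recombinase, and the wild-type cultures from NFATc1 fl/fl MxCre- mice, so that floxed alleles were common to both groups. The sources used here do not say whether the wild-type mice also received polyIC, nor how old the mice were. Mx-driven Cre is not restricted to osteoclasts or their precursors. Sorted marrow precursors (c-Kit and c-Fms positive, negative for CD11b, CD3e and B220) were plated at 20000 per well and grown in M-CSF, a macrophage growth factor, plus RANKL, the osteoclast-inducing cytokine, for 3 days. Each of the 4 arrays, 2 per group, carried RNA from pooled mice, 3 in replicate 1 and 4 in replicate 2, and the precision of every comparison is limited by their number.

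Osteoclasts form when mononuclear precursors of the macrophage lineage fuse into large multinucleated cells that resorb bone. OC-STAMP, the product of Ocstamp, is a membrane protein with several membrane-spanning segments that mouse osteoclast precursors need in order to fuse. Tetraspanins are small membrane proteins that gather integrins, proteases and other partners into patches of the plasma membrane, and CD9 on the mouse egg is needed for fusion with sperm. CD44, a receptor for hyaluronan and osteopontin, and CD47, the ligand of the receptor SIRP alpha, are not tetraspanins but have been linked to macrophage fusion.

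The labels were checked on Nfatc1 and on defining markers. Nfatc1 had signals of 3018 and 4098 on the NFATc1-deficient arrays and 5434 and 6147 on the wild-type arrays at its brighter probe set (log2 change -0.71, SE 0.15, adjusted p = 0.0104 by limma). Without NFATc1-deficient replicate 1 its adjusted p was 0.0871. The labels do not say which exons were deleted, so these probe sets need not report the deletion. The osteoclast markers Acp5 and Ctsk were bright on all arrays, whereas Itgb3 (4.6 and 10.2) and, on 1 array, Calcr (17.0 and 41.6) lay below 23.3, the 25th percentile of all values, on the NFATc1-deficient arrays, against 611 and 495 for Itgb3 and 761 and 718 for Calcr on the wild-type arrays. Xist had 2690.0 and 111 on the NFATc1-deficient arrays of replicates 1 and 2, and 3595 and 106 on the wild-type arrays, and the Y-linked Eif2s3y ran the other way, so the pools of the 2 replicate numbers differed in sex. Same-numbered arrays are therefore also compared below.

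In the NFATc1-deficient cultures 5 members passed the threshold as lower and no member passed as higher. The fusion protein gene Ocstamp and the tetraspanin genes Tspan5, Cd9, Cd53 and Cd82 were lower, each to between 47.3% and 67.3% of its wild-type mean signal. The remaining members, Cd37, Cd81, Tspan13, Cd44 and Cd47, did not pass at any probe set. With replicate number, which also separates the sexes of the pools, as a block, the same 5 members were lower, Cd81 passed as higher and 1 probe set of Cd37 passed as lower. Changes are differences of log2(signal + 23.3), which understates the change of dim genes, and a change passed at an adjusted p under 0.05 in a limma fit of all 13577 probe sets above a brightness filter. Of the 18 member probe sets 16 were tested, and 5 of these were lower, where 11.4% of all probe sets tested were lower and 24.2% passed in either direction. Because the members were chosen with earlier results of these data known, these shares are given without a test. Of the same 16, 0 were higher by limma, where 12.8% of all were higher, and 1 was higher at an unadjusted p under 0.05. The median change of the 16 was -0.24, against 0.036 for all probe sets tested. Both NFATc1-deficient signals lay below both wild-type signals for 11 of the 16 and above both for 1, against 28.8% and 34.4% of all probe sets. The 11 are not separate genes: they include several probe sets of Cd47 and both of Tspan5. They also include a probe set of Cd44, whose other probe set was the 1 above. Without NFATc1-deficient replicate 1, 940 probe sets were lower and 854 higher over the whole array, against 1552 and 1740 with all arrays.

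**Figure D1:**
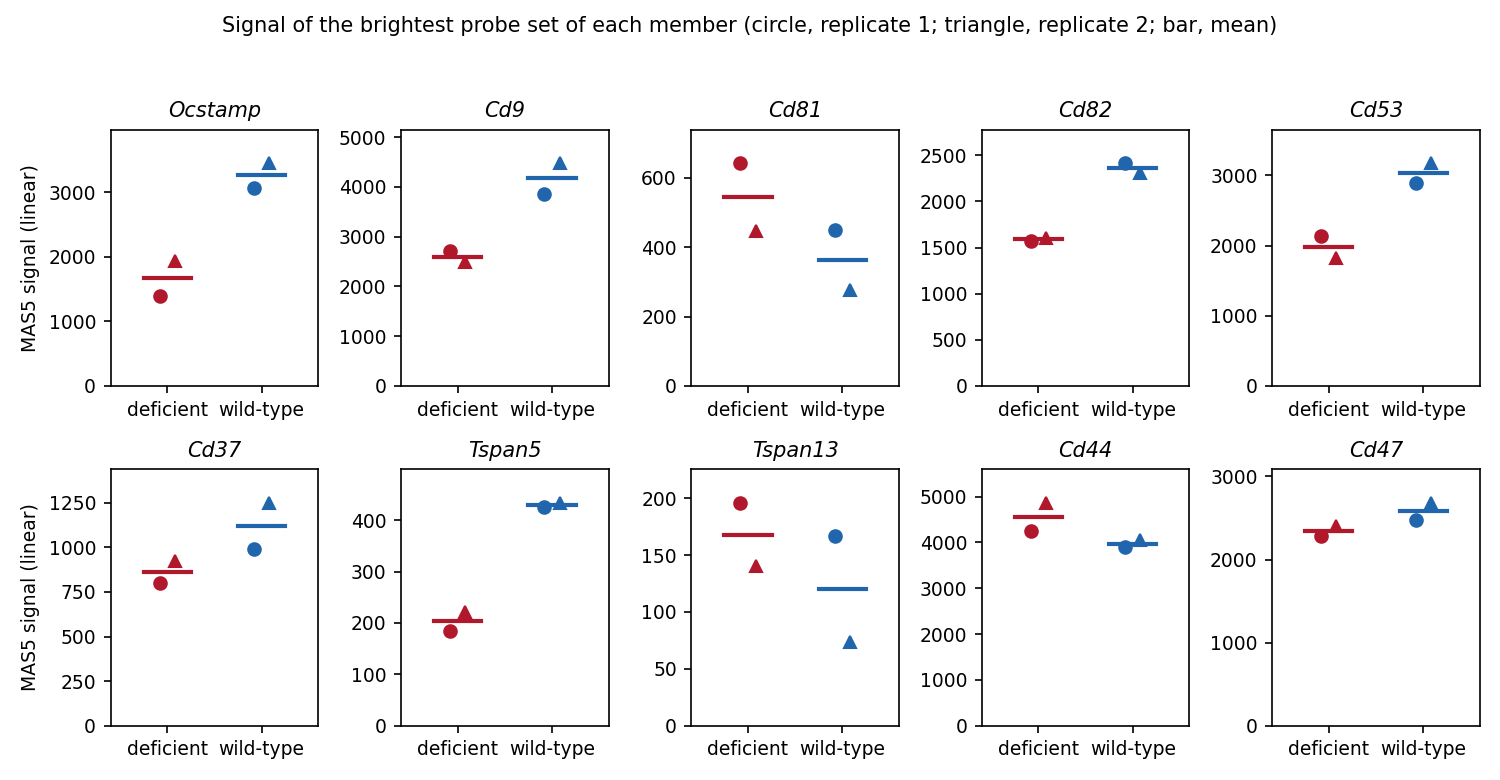
Linear MAS5 signal of the brightest probe set of each member (y axis, from 0) on the 2 NFATc1-deficient (red, left) and 2 wild-type arrays (blue, right), with circles for replicate 1, triangles for replicate 2 and bars for the mean. Ocstamp, Cd9, Cd82, Cd53, Tspan5, Cd37 and Cd47 show both NFATc1-deficient signals below both wild-type signals. Cd44 shows both above, and the signals of Cd81 and Tspan13 overlap. Among all probe sets tested, 28.8% lay wholly below and 34.4% wholly above.

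Ocstamp had signals of 1397 and 1933 on the NFATc1-deficient arrays and 3070.5 and 3451 on the wild-type arrays. The groups did not overlap, and the lower NFATc1-deficient signal was that of replicate 1. Its mean was 1665 ± 379 in NFATc1-deficient and 3261 ± 269 in wild-type cultures (signal ± SD, n = 2 each), which is 51.1% of the wild-type mean. The log2 change was -0.98 (SE 0.15, 95% interval -1.33 to -0.62, adjusted p = 0.00303 by limma). Of all probe sets tested, 3.72% had a lower change. Ocstamp has 1 probe set on this array, 1425386_at, so no second probe set bears on it.

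Tspan5 belongs to the tetraspanins that bind the protease ADAM10 and guide it to the cell surface, and in a mouse precursor line it has been given a role opposite to that of Tspan13 in osteoclast formation. Its brighter probe set (1417179_at) had signals of 184.7 and 221.6 on the NFATc1-deficient arrays and 424.8 and 434.1 on the wild-type arrays. These groups stood apart by more than the spread within either. The mean was 203 ± 26.1 in NFATc1-deficient and 429 ± 6.58 in wild-type cultures (SD, n = 2 each), with a log2 change of -1.0 (SE 0.17, 95% interval -1.39 to -0.62, adjusted p = 0.00378). The dimmer probe set (1431530_a_at) had 67.0 and 101.2 on the NFATc1-deficient arrays and 119.7 and 152.4 on the wild-type arrays. Here too the groups did not overlap, but the log2 change of -0.58 (SE 0.27, 95% interval -1.19 to 0.027, adjusted p = 0.154) did not pass.

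Cd9 had signals of 2710.3 and 2494 on the NFATc1-deficient arrays and 3862 and 4484 on the wild-type arrays. Both NFATc1-deficient arrays were low, at a mean of 2602 ± 153 against 4173 ± 440 in wild-type cultures (SD, n = 2 each). The log2 change was -0.67 (SE 0.11, 95% interval -0.94 to -0.41, adjusted p = 0.00421).

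Cd53 encodes a tetraspanin of white blood cells. Its signals were 2136 and 1818 on the NFATc1-deficient arrays and 2892 and 3177 on the wild-type arrays, again without overlap. The means were 1977 ± 225 in NFATc1-deficient and 3034 ± 202 in wild-type cultures (SD, n = 2 each), and the log2 change was -0.62 (SE 0.12, 95% interval -0.89 to -0.35, adjusted p = 0.00701).

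Cd82, also known in human cancers as the metastasis suppressor KAI1, had signals of 1570.5 and 1605 on the NFATc1-deficient arrays and 2417 and 2304 on the wild-type arrays at probe set 1416401_at. Among the 5 members that fell, the NFATc1-deficient arrays of Cd82 lay closest together, with means of 1588 ± 24.3 in NFATc1-deficient and 2360.0 ± 79.9 in wild-type cultures (SD, n = 2 each). The log2 change was -0.56 (SE 0.10, 95% interval -0.80 to -0.33, adjusted p = 0.00548). Its other probe set (1449611_at) had a mean just under the brightness filter of 61.95 and was not tested. That probe set had 152.5 and 15.8 on the NFATc1-deficient arrays and 24.4 and 36.0 on the wild-type arrays, so 1 array alone was high.

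**Figure D2:**
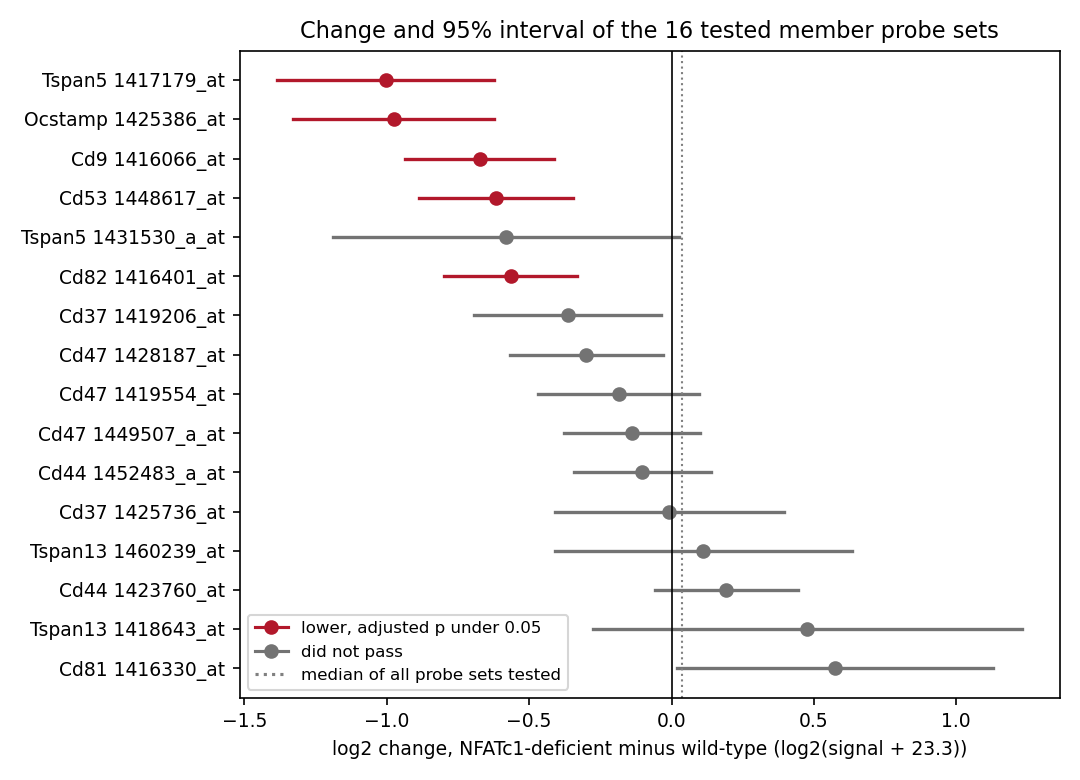
Log2 change, NFATc1-deficient minus wild-type, with its 95% interval from limma (x axis) for the 16 tested member probe sets (rows), red where lower at an adjusted p under 0.05 and grey where not past. The 5 red points run from -1.0 for Tspan5 to -0.56 for Cd82, and the dotted line marks the median of all probe sets tested, 0.036.

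Cd37, a tetraspanin of lymphoid and myeloid cells, had 2 tested probe sets that differed. The brighter one (1419206_at) had 799.9 and 925.5 on the NFATc1-deficient arrays and 993.5 and 1251 on the wild-type arrays. The groups did not overlap, but the log2 change of -0.36 (95% interval -0.69 to -0.035, adjusted p = 0.103) did not pass. The same change passed once replicate number was a block (adjusted p = 0.0389). Without wild-type replicate 1 it was -0.53 (adjusted p = 0.0250), without wild-type replicate 2 it was -0.20 (adjusted p = 0.453) and without NFATc1-deficient replicate 1 it was -0.26 (adjusted p = 0.362). The dimmer one (1425736_at) had 249.8 and 261.1 on the NFATc1-deficient arrays and 234.7 and 281.0 on the wild-type arrays, with a change of -0.0078 (95% interval -0.41 to 0.39).

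Cd81, the closest relative of CD9 among the members in its binding partners, pointed the other way. It had signals of 643.0 and 446.8 on the NFATc1-deficient arrays and 450.4 and 275.6 on the wild-type arrays. The groups overlapped, because replicate 1 was the higher array of both. The log2 change was 0.57 (SE 0.24, 95% interval 0.018 to 1.13, adjusted p = 0.126). With replicate number as a block the same change passed (adjusted p = 0.0139). It also passed with median scaling (0.58, adjusted p = 0.0249), without NFATc1-deficient replicate 2 (0.82, adjusted p = 0.0393) and without wild-type replicate 1 (0.90, adjusted p = 0.00375), and the range over all 12 alternative settings was 0.24 to 0.90 with adjusted p from 0.00375 to 0.489. Whether the changes of Cd81 and Cd9 differ from each other was not tested.

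Tspan13 had 2 tested probe sets, both in the dim part of the array. Probe set 1418643_at had 196.0 and 140.0 on the NFATc1-deficient arrays and 167.1 and 73.7 on the wild-type arrays, with a change of 0.48 (95% interval -0.28 to 1.23, adjusted p = 0.343). This value rested on wild-type replicate 2, the low array: the change was -0.0088 without it, and 0.96 (adjusted p = 0.0214) without wild-type replicate 1. Probe set 1460239_at had 130.2 and 136.6 on the NFATc1-deficient arrays and 137.7 and 107.2 on the wild-type arrays, with a change of 0.11 (95% interval -0.41 to 0.63).

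Cd44 was bright in both genotypes and its 2 probe sets lay on either side of 0. Probe set 1423760_at had 4250 and 4869 on the NFATc1-deficient arrays and 3894 and 4060.0 on the wild-type arrays, a change of 0.19 (95% interval -0.057 to 0.44, adjusted p = 0.246). Probe set 1452483_a_at had 2505 and 2492 on the NFATc1-deficient arrays and 2549 and 2826 on the wild-type arrays, a change of -0.10 (95% interval -0.34 to 0.14, adjusted p = 0.531). Neither passed in any of the 12 alternative settings.

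Cd47 had 3 tested probe sets, all lower in the mean and none past the threshold. The brightest (1449507_a_at) had 2281 and 2404 on the NFATc1-deficient arrays and 2479 and 2684 on the wild-type arrays, a change of -0.14 (95% interval -0.38 to 0.10, adjusted p = 0.385). The next (1428187_at) had 961.7 and 1092 on the NFATc1-deficient arrays and 1304 and 1229.9 on the wild-type arrays, a change of -0.30 (95% interval -0.57 to -0.030, adjusted p = 0.102). The third (1419554_at) had 934.0 and 798.9 on the NFATc1-deficient arrays and 998.4 and 973.5 on the wild-type arrays, a change of -0.19 (95% interval -0.47 to 0.098, adjusted p = 0.326). In all 3, which measure 1 gene on the same arrays, both NFATc1-deficient signals lay below both wild-type signals. The same held for 28.8% of all probe sets tested. The 3 intervals do not reach a halving of the signal. A further probe set (1459908_at) stayed between 9.4 and 31.7 on all arrays and was not tested.

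Between same-numbered arrays the 5 members that fell were lower in both pairs. Where both NFATc1-deficient signals lie below both wild-type signals, every pairing gives this direction, so it adds no support. Only the sizes of the falls are new here. Ocstamp (-1.12 in replicate 1 and -0.83 in replicate 2) and Tspan5 (-1.11 and -0.90) had the larger fall in replicate 1. Cd9 (-0.51 and -0.84) and Cd53 (-0.43 and -0.80) had the larger fall in replicate 2, and Cd82 had -0.61 and -0.52. Cd81 was higher in both pairs, by 0.49 in replicate 1 and 0.65 in replicate 2. With 1 array per genotype and number, no spread can be given for these differences.

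**Figure D3:**
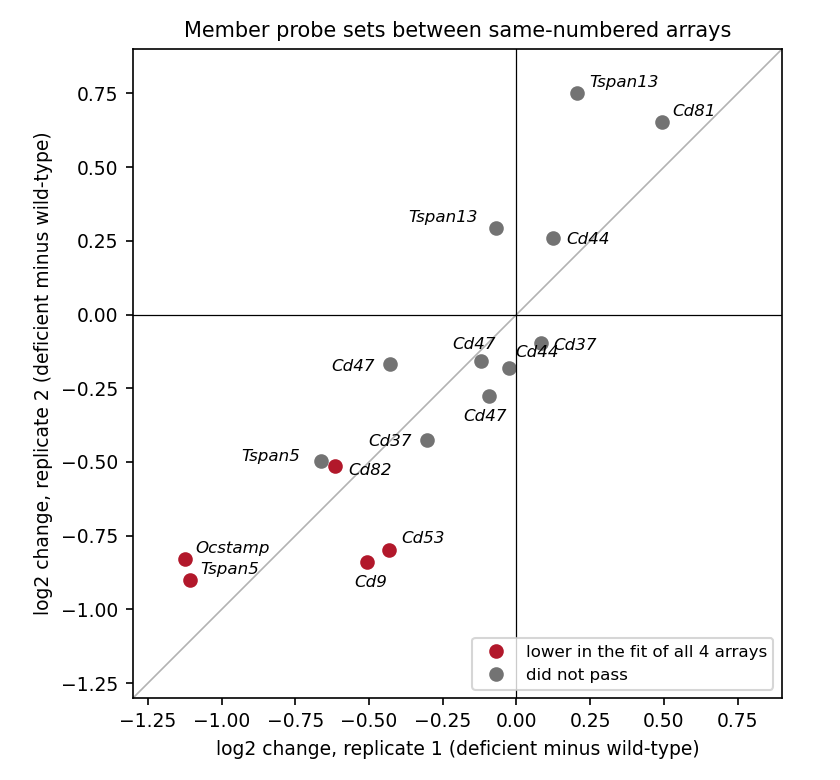
Log2 change between the replicate 1 arrays (x axis) and between the replicate 2 arrays (y axis), NFATc1-deficient minus wild-type, for the 16 tested member probe sets, red for those that passed in the fit of all 4 arrays. The 5 red points lie in the lower left, as they must because their groups do not overlap, with Ocstamp and Tspan5 near -1 on both axes. The 2 Tspan13 probe sets lie further up in replicate 2 (0.75 and 0.29) than in replicate 1 (0.20 and -0.069).

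The upstream DNA of the members was read from RefSeq (assembly GRCm38.p6) because 5 of them were lower in the NFATc1-deficient cultures. Whether NFATc1, a transcription factor, acts on any of them directly was not tested. NFAT proteins bind a GGAAA core, often next to an AP-1 site, TGANTCA. Both motifs were searched on both strands in the 250 bases before each annotated start, and no AP-1 match, hence no overlap of the motifs, was found. The table held 13 such windows for 9 of the 10 members, all but Ocstamp. The sequences shown are those of the 4 members that fell and have a window, for Cd82 the one of its 4 windows with most matches, and of Cd44 as a bright member that did not pass. Capitals mark GGAAA or its reverse complement, TTTCC. The windows are chr6:125494761-125495010 (minus strand) for Cd9, chr3:106790150-106790399 (minus) for Cd53, chr2:93461852-93462101 (minus) for Cd82, chr3:138741958-138742207 (plus) for Tspan5 and chr2:102901666-102901915 (minus) for Cd44.
Cd9: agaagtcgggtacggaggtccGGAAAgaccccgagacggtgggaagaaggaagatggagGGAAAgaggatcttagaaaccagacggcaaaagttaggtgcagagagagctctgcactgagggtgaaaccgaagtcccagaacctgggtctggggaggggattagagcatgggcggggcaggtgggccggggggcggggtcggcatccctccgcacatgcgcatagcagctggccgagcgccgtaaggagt
Cd53: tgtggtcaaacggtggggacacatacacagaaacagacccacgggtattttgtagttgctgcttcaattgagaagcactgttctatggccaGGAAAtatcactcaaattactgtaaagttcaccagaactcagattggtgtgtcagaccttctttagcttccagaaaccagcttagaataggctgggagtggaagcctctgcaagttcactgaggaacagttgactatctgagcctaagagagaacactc
Cd82: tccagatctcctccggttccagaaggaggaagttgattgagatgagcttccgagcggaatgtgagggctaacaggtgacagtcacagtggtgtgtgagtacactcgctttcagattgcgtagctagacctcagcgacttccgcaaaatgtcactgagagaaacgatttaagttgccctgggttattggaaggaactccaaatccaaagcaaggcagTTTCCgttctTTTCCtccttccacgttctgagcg
Tspan5: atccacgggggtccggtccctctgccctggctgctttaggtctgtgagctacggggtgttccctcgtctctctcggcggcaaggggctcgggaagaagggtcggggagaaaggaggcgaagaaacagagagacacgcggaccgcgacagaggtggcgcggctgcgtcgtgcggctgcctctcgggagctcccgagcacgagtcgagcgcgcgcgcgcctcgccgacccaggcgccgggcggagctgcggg
Cd44: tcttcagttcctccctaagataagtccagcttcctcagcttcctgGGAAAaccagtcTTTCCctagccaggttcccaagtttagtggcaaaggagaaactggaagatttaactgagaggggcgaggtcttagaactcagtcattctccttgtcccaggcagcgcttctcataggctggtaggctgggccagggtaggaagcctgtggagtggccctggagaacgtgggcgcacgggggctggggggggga

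The core was present in 6 of the 13 member windows, where 55.6% of all 32851 windows of the same length in the table held it. By call, these were 4 of the 7 windows of the members that fell (those of Cd9 and Cd53 and 2 of the 4 of Cd82) and 2 of the 6 windows of the members that did not pass (no test was run). Cd9 and Cd44 had 2 matches each, and so did the Cd82 window shown. Tspan5, which had the largest log2 change among the tested member probe sets, had no match in its window. AP-1 matches were found in 0 of the 13 windows, against 6.75% of all windows. A match is a run of letters, not a shown binding site, and its absence says only that these letters are not in this window.

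Other tetraspanins and genes around the members were taken from 4 lists. Like the members, these lists were chosen with earlier results of these data known. Each gene was represented by its brightest tested probe set. By that measure 5 of the 10 members were lower and 0 higher, with a median of -0.46, where 11.9% of all 7798 genes were lower, 12.9% were higher and the median was 0.031. The lists share 5 genes, and without repeats 18 of their 62 tested genes were lower and 8 higher.

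Of 12 other tetraspanins tested, 2 were lower, 1 was higher and 9 did not pass, with a median of -0.018. Among all genes 11.9% were lower and 12.9% higher. Tspan17 (-0.81, adjusted p = 0.0367) and Tspan14 (-0.54, adjusted p = 0.0370) were lower. The other probe set of Tspan17 had -0.68 (adjusted p = 0.0506) and did not pass. Cd151, which binds laminin-binding integrins, was higher (0.42, adjusted p = 0.0298), with 0.41 at another probe set that passed and 0.069, 0.17 and 0.60 at those that did not. Without NFATc1-deficient replicate 1 none of the 3 passed (adjusted p = 0.200 for Tspan17, 0.201 for Tspan14 and 0.0901 for Cd151). Tspan17 also did not pass without wild-type replicate 1 (0.116), Tspan14 without wild-type replicate 2 (0.0798), or Cd151 without NFATc1-deficient replicate 2 (0.0870) or wild-type replicate 2 (0.126).

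Of 12 tested tetraspanin partners, 3 were lower, 1 was higher and 8 did not pass, with a median of -0.053. The shares over all genes were 11.9% lower and 12.9% higher. The growth factor gene Hbegf (-1.14, adjusted p = 0.00257), whose membrane-bound product associates with CD9, fell with its other probe set (-1.05). Adam10, the protease carried by Tspan5 and its relatives, had 4495 and 3963 on the NFATc1-deficient arrays and 2738 and 2610 on the wild-type arrays, a rise of 0.65 (adjusted p = 0.00376). Its other probe sets had 0.44, which passed, and 0.19, which did not. The integrin genes Itgb1 (-0.46, adjusted p = 0.0262) and Itga6 (-0.42, adjusted p = 0.0388) were lower. The other probe set of Itga6 had -0.78 (adjusted p = 0.0102) and passed. Other Itgb1 probe sets had -0.085 and -0.19 and did not pass. Itgb1 lost the call without NFATc1-deficient replicate 1 (adjusted p = 0.166) or wild-type replicate 2 (0.0626), and Itga6 without NFATc1-deficient replicate 1 (0.0989), NFATc1-deficient replicate 2 (0.106) or wild-type replicate 2 (0.186). The list had 1 lower gene without NFATc1-deficient replicate 1 or without wild-type replicate 2.

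Among 30 tested other genes of osteoclast and macrophage fusion, 12 were lower, 2 were higher and 16 did not pass, with a median of -0.41, beside the 11.9% of all genes that were lower. Since this list was written with earlier results of these data known, no enrichment can be read from its counts. It also shares Itgb3 and Mmp9 with the osteoclast markers. The largest changes were those of Itgb3 (-4.23), which pairs with integrin alpha V, the myosin gene Myo1d (-4.0), Cd200 (-2.14), the small GTPase gene Rac2 (-1.80), Cd109 (-1.57) and the membrane-bound metalloproteinase gene Mmp14 (-1.52). Itgb3 lay below the pseudocount on both NFATc1-deficient arrays, so the size of its change is not known. The 2 genes that were higher, named after their values were seen, were the metalloprotease gene Adam8 (0.84, adjusted p = 0.00126) and Dock1 (0.74, adjusted p = 0.0314). Dock1 did not pass without NFATc1-deficient replicate 1 (0.0627), NFATc1-deficient replicate 2 (0.140) or wild-type replicate 2 (0.103), and without wild-type replicate 2 the list had 1 higher gene.

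Of 13 tested partners, ligands and ligand-making enzymes of CD44 and CD47, 6 were lower, 4 were higher and 3 did not pass, with a median of -0.12. Of all genes, 11.9% were lower and 12.9% higher. This list too was written with earlier results of these data known, so no enrichment can be read from its counts. Its lower genes Sirpa, Itgb3, Mmp14 and Mmp9 were already counted among the fusion genes. Sirpa, the receptor of CD47, was named after its values were seen. It had 2189 and 2533 on the NFATc1-deficient arrays and 3203 and 3812 on the wild-type arrays, a change of -0.56 (adjusted p = 0.0131, and 0.0896 without NFATc1-deficient replicate 1), with -0.84 and -0.77 at its other probe sets, which passed. Thbs1, whose product thrombospondin binds CD47, had 245.6 and 237.1 on the NFATc1-deficient arrays and 95.1 and 106.8 on the wild-type arrays, a rise of 1.09 (adjusted p = 0.00595), with 0.49 at a probe set that did not pass. Hmmr, a second hyaluronan receptor, rose by 0.97 (adjusted p = 0.00156) and passed at its 3 other probe sets. Ezr, which ties CD44 to the actin skeleton, rose by 0.80 at its brightest probe set and was at -2.21, also past the threshold, at another, so its direction is not settled. Mmp14 and Mmp9 (-0.75, adjusted p = 0.00590), which code for proteases that cut or bind CD44, were lower, Mmp9 not without NFATc1-deficient replicate 1 (0.131). Without that array 2 genes of the list were lower.

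**Figure D4:**
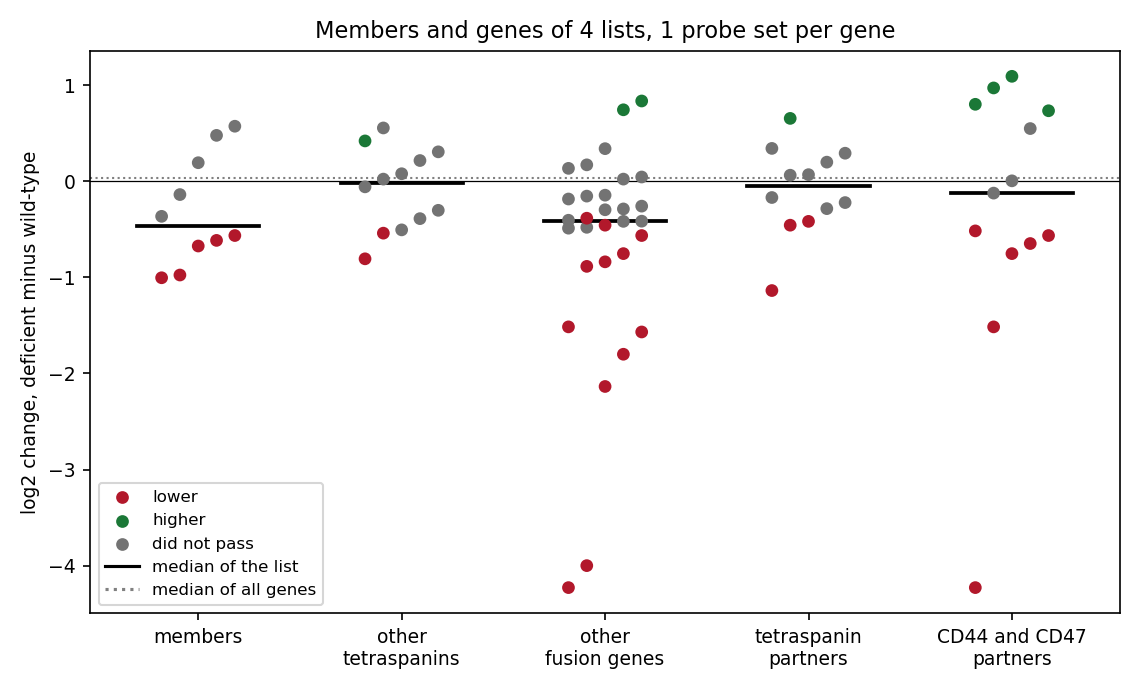
Log2 change, NFATc1-deficient minus wild-type (y axis), of the brightest tested probe set of each member and of each gene of the 4 lists (columns), red for lower, green for higher, grey for not past, with a black bar for the median of each column. The medians are -0.46 for the members, -0.41 for the other fusion genes and -0.018 for the other tetraspanins, and the dotted line is the median of all genes, 0.031. Ezr and Cd151 are drawn at their brightest probe sets only.

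Markers of cells that could be present were measured beside the members. The sort before plating took c-Kit positive cells and removed those with CD11b, CD3e or B220 on their surface. In cultures of mixed cells, fewer cells of a type and less RNA per cell cannot be told apart. All 6 measured osteoclast markers were lower, with summed signals of 17688 and 24242 on the NFATc1-deficient arrays and 40568 and 45849 on the wild-type arrays, and 4 were lower without NFATc1-deficient replicate 1. Of 6 macrophage markers 2 were lower and 1 higher, with sums of 18159 and 18018 on the NFATc1-deficient arrays and 22241 and 26212 on the wild-type arrays. Most of each sum came from the 2 lower markers, Csf1r and Cd68, and the higher one was Cd14. Without NFATc1-deficient replicate 1 none of these 3 passed (adjusted p = 0.0992 for Cd68 and 0.245 for Csf1r, the 2 that were lower), without NFATc1-deficient replicate 2 there was 1 lower, without wild-type replicate 1 there were 2 higher and without wild-type replicate 2 there were 0 higher. Of 8 granulocyte markers 3 were higher, with sums of 15178 and 7354 on the NFATc1-deficient arrays and 4972 and 5983 on the wild-type arrays. That count was 1 without NFATc1-deficient replicate 1, 7 without NFATc1-deficient replicate 2 and 6 without wild-type replicate 2. Of 6 antigen-presenting markers 3 were higher, with sums of 7350 and 6742 on the NFATc1-deficient arrays and 5524 and 4619 on the wild-type arrays, and 1 was higher without NFATc1-deficient replicate 1. Of 9 lymphoid markers with a probe set 2 were tested and 1 was higher, with sums of 683 and 646 on the NFATc1-deficient arrays and 619 and 371 on the wild-type arrays. None of the 3 tested progenitor and 2 tested megakaryocyte markers passed, with sums of 975 and 644 for progenitor markers on the NFATc1-deficient arrays and 666 and 464 on the wild-type arrays, and of 664 and 553 for megakaryocyte markers on the NFATc1-deficient arrays and 637 and 482 on the wild-type arrays. With single arrays left out, 0 to 1 of either were higher. No marker was listed at 0. The part of these shifts in the members' changes was not tested.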

How the data were processed

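The deposited values were linear probe set intensities from MAS5, per the submitters' processing notes, which combines the probes of a probe set and scales each array by 1 factor. Without detection calls, how far a dim signal stands above background is unknown. Arrays had median signals of 112 to 130. Per the platform annotation, 20393 of 22690 probe sets had 1 gene symbol, 691 several and 1606 none.

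Signals were analysed as log2(signal + 23.3), the 25th percentile of all values. Leaving out 64 control probe sets and those with a mean at or under the 40th percentile left 13577, which were fitted with limma 3.58.1 in R 4.3.3 (lmFit, eBayes with an intensity trend), NFATc1-deficient minus wild-type. The two-sided p-values were adjusted by Benjamini-Hochberg over all of them. An exact permutation test of 2 against 2 arrays cannot go below 0.333 and was not used. The series calls the replicates biological. Only the limma fit was tried on simulated signals, and its pass mark concerned changes larger than those of the members.

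The members, lists, tests and alternatives were chosen with earlier results of these data known. All members are named, and of each list up to 6 genes past the threshold with the largest change, with others marked in the text. Deviations of same-numbered arrays correlated at 0.13 across probe sets, with 2 pairs. Other settings covered scaling, pseudocount, filter, variance trend, replicate block and single arrays left out.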

Additional observations from a re-analysis of the deposited data

How the results depend on the processing

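Ocstamp, Tspan5 (1417179_at), Cd9, Cd53 and Cd82 (1416401_at) were lower in each of 12 alternative settings, with adjusted p up to 0.0332, 0.0175, 0.0394, 0.0499 and 0.0431. Cd81 passed with median scaling (adjusted p = 0.0249) and with replicate number as a block (0.0139), so 1 member probe set was higher under either; Cd37 (1419206_at) also passed with the block (-0.36, adjusted p = 0.0389). The block, whose numbers also separate the sexes of the pools, changed no other member call. The dimmer Cd37 probe set had 0.0027 with median scaling and -0.13 to 0.11 when single arrays were left out (0.021 and 0.11 were the values above 0). With single arrays left out, Tspan13 ran from -0.0088 to 0.96 at probe set 1418643_at and from -0.039 to 0.26 at 1460239_at, lowest without wild-type replicate 2. With single arrays left out, 5 to 6 member probe sets were lower and 0 to 2 higher, against 940 to 1546 lower and 854 to 1945 higher on the whole array. The list counts were then 0 to 2 lower and 0 to 1 higher for other tetraspanins, 8 to 14 lower and 1 to 3 higher for fusion genes, 1 to 3 lower for tetraspanin partners, and 2 to 6 lower for partners of CD44 and CD47. On the whole array 1157 probe sets were higher without a filter and 990 without the variance trend. Other tetraspanins had 0 lower without a filter, 1 lower with the filter at the 60th percentile (5 genes tested) or without the trend, and 0 higher with median scaling, without the trend or when a gene's probe sets were averaged. Fusion genes had 1 higher without a filter or without the trend. Tetraspanin partners had 1 lower with median scaling, without a filter or without the trend, and partners of CD44 and CD47 had 3 lower without the trend. Among list genes named in the text, Sirpa, Itgb1, Itga6, Cd151, Tspan14, Dock1 and Ezr did not pass without the trend (adjusted p of 0.0531 for Ezr to 0.0963 for Tspan14), Tspan14, Tspan17, Dock1, Itgb1 and Itga6 not without a filter (0.0558 for Itgb1 to 0.108 for Tspan17), and Cd151, Itgb1 and Itga6 not with median scaling (0.0682 for Itgb1 to 0.0954 for Itga6). Nfatc1 did not pass without the trend (0.0613). Of the granulocyte markers 0 were higher without a filter or without the trend and 5 with the block, and of the macrophage markers 0 were lower or higher without the trend. The cause of these shifts was not tested. With 2 arrays a group, members that did not pass are bounded only by their intervals.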
